A study of Macaca fascicularis with 15 samples.

Results

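The comparison set 3 samples of peripheral retina, the part of the retina away from the area of sharpest vision, against 2 samples of whole retina from the cynomolgus monkey (Macaca fascicularis). These 5 samples were chosen by the tissue in their labels, from 11 samples with a table of gene values and 15 sample records in all. The other 6 tables, 4 of central retina and 2 of whole eye, were used as reference. For whole retina, 2 further records had no table here and were not analysed.

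All groups were labelled wild type, with no treatment, and the tissue had been placed in an RNA-preserving solution. Each sample came from 1 eye. Biological replicates were stated for eye and retina, but no animal, age, date or batch was given, so a p-value here covers no more than the spread among these libraries, part of which may be technical. The comparison asks which genes differ between a dissected region of the retina and a retina taken whole.

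The retina is a layered nervous tissue. Rods and cones catch light and pass their signal through ribbon synapses to bipolar cells, horizontal and amacrine cells shape that signal, and ganglion cells send it to the brain. Rods dominate outside the centre, and ganglion cells are most dense near it. The pigment epithelium, which renews the light-sensing retinoid, and the choroid, a layer of vessels, melanocytes and connective tissue, lie directly behind the retina, while the ciliary body and lens lie in front of it.

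Values were already normalized by the submitters to an unstated unit, and absolute depth is unknown. From the spacing of low values, depth relative to whole retina replicate 1 was estimated at 0.73, 0.305 and 0.94 in peripheral replicates 1 to 3. For whole retina replicate 2 the estimate was 1.74. Only 17 of 70, 17 of 74, 17 of 82 and 16 of 91 low values, in that order, lay on the spacing used. Each estimate may be off by a ratio of small whole numbers. Of 12995 entries, 313 to 424 were listed at 0 in a peripheral library and 196 to 226 in a whole retina library. Genes are not independent replicates; across them, peripheral libraries correlated with each other (log2 values) at 0.973 to 0.98, the 2 whole retina libraries at 0.953, and peripheral with whole retina libraries at 0.838 to 0.875. Whole retina with whole eye gave 0.914 to 0.955.

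The label of whole retina was checked against markers of neighbouring tissues, and many were high. Summed over the tested members of each list, smooth muscle and pericyte genes reached 1586.6 and 1938.8 in the whole retina libraries, 59.2 to 83.03 in peripheral retina and 900.41 to 1636.3 in whole eye. Pigment epithelium genes summed to 2055.9 and 2259.1 in whole retina, 409.24 to 611.36 in peripheral retina and 2128.3 to 2319.8 in whole eye. Lens genes summed to 448.01 and 630.11 in whole retina, 9.17 to 16.27 in peripheral retina and 3831.5 to 3950.8 in whole eye. Whole retina libraries thus carried RNA of these lists at or near the level of whole eye, except for lens, where whole eye was higher. The plot of summed list levels shows these values in all 11 libraries, and their part in the other results was not tested. In such bulk samples, fewer cells of a type and less RNA per cell cannot be told apart.

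**Figure D1:**
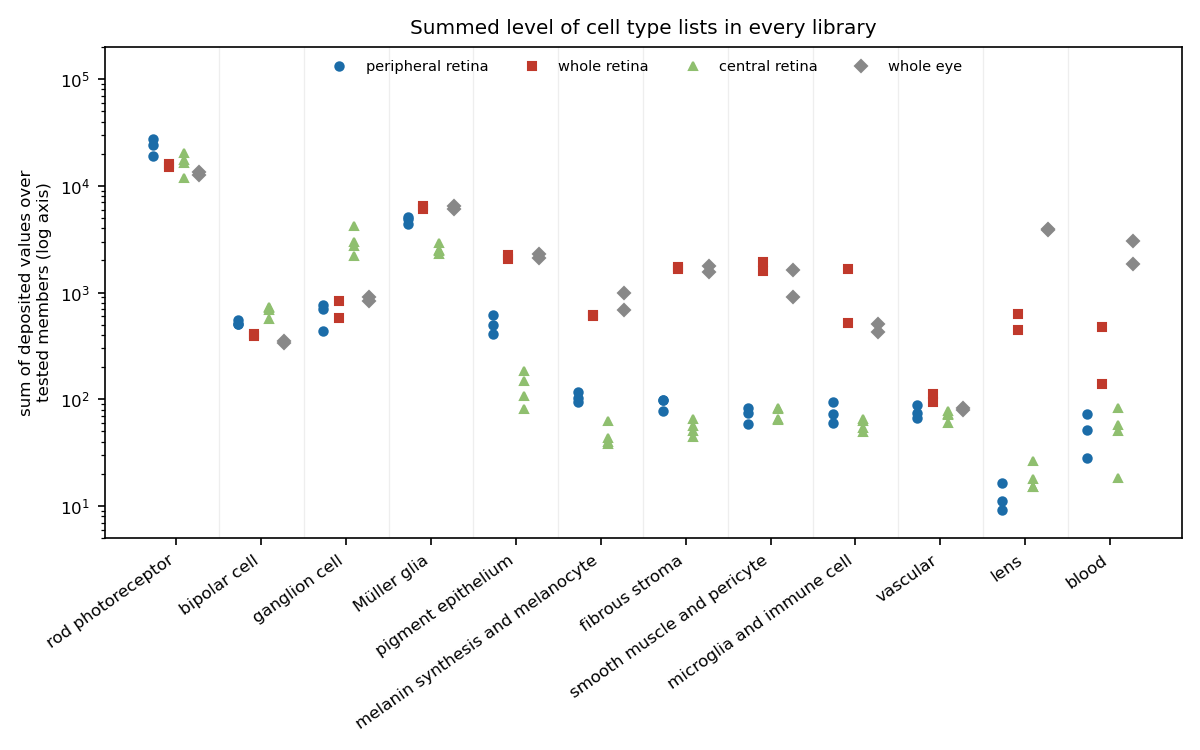
Sum of the deposited values (unit not stated, log axis) over the tested members of 12 lists, 1 point per library. Smooth muscle genes lie at 59.2 to 83.03 in the 3 peripheral libraries and at 1586.6 and 1938.8 in the 2 whole retina libraries, while rod genes lie at 19083 to 27739 and at 15087 and 16178.

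The values are normalized, so levels are relative within each library. On that scale, rod, shared photoreceptor, ribbon synapse, bipolar and amacrine genes were higher in peripheral than in whole retina, by small factors. Cone genes gave few calls, 2 of 16 tested. Genes of pigment cells, connective tissue, smooth muscle, immune cells and lens were much lower in peripheral retina. Central retina differed from whole retina in the same directions, with list medians of 0.32 for rod, 0.78 for ribbon synapse and 0.68 for bipolar genes. For smooth muscle genes its median was −4.02. The directions are thus not particular to peripheral retina. Of 11933 tested genes, 1173 were higher in peripheral retina (9.83%) and 2904 lower (24.3%), together 34.2%, by limma on log2(value + 1) with a Benjamini-Hochberg adjusted p under 0.05. The median difference over all tested genes was −0.08 on that scale. On the log2(value + 1) scale the lower genes differed more: 1558 fell at least 2-fold, 201 at least 8-fold and 24 at least 32-fold, against 152, 1 and 0 of the higher genes. The libraries of both groups did not overlap for 6832 genes (57.3%), with all peripheral libraries higher for 2587 (21.7%) and lower for 4245 (35.6%).

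The balance of both directions depends on the scaling. Calls in the higher direction made up 28.8% of all calls on the deposited values, 39.0% after scaling by a trimmed mean of log ratios, 51.9% after median centring and 60.9% after quantile normalization. These moved the median of all genes to 0.00, 0.11 and 0.16. The shares of tested genes called were then 35.1% (13.7% higher, 21.4% lower), 39.1% (20.3% higher, 18.8% lower) and 43.3% (26.3% higher, 16.9% lower). Small differences are therefore read against that shift. The medians of 7 lists changed sign under quantile normalization, and each is named with its list. Without whole retina replicate 2, 697 genes were higher, the fewest when any single library was left out.

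**Figure D2:**
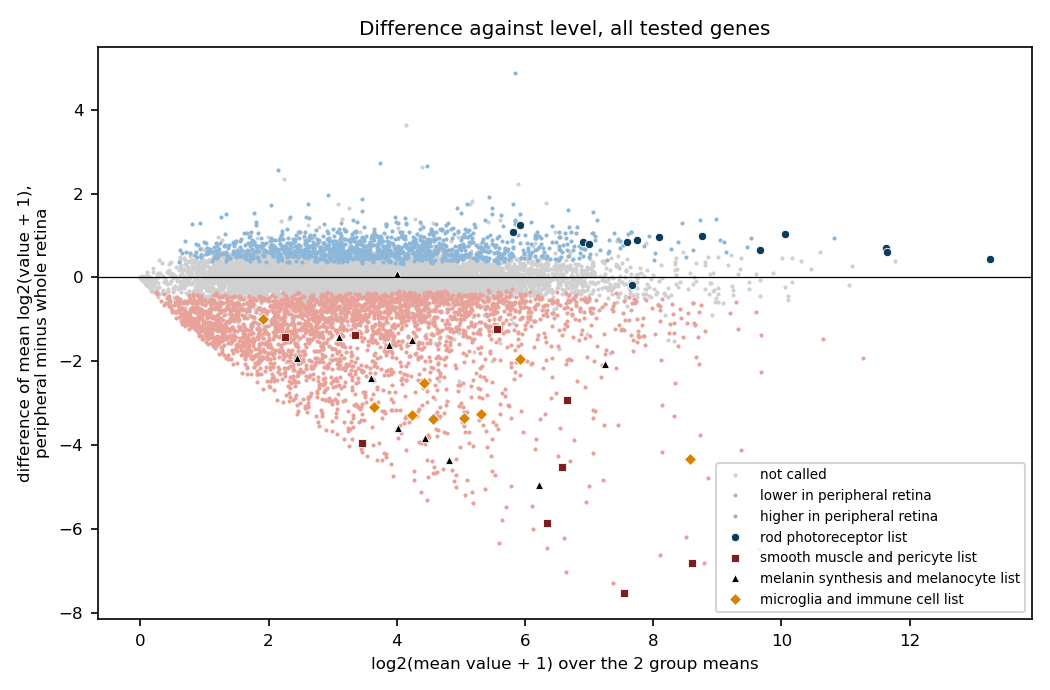
Difference of mean log2(value + 1), peripheral minus whole retina, against log2(mean value + 1) over both groups, 1 point per tested gene. The 2904 genes lower in peripheral retina reach differences below −7, whereas only 4 of the 1173 higher genes exceed a 4-fold difference.

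Names with a shared start need care. Where 1 gene name begins with another, such as RPE and RPE65, values may stand under the wrong name in some libraries, which concerns 2426 tested genes, of which 33.3% were called (8.9% higher, 24.4% lower). Without them, 987 of 9507 genes were higher (10.4%) and 2346 lower (24.7%), together 35.1%. RPE65, the isomerase of the visual cycle, was 7.01, 7.48 and 6.18 in peripheral and 223.79 and 267.92 in whole retina. RPE, a sugar phosphate epimerase, ran the other way at 100.45, 57.41 and 47.58 against 15.4 and 17.44, and was looked at after its values were seen. The sum of both was still higher in each whole retina library than in any peripheral one. In the RefSeq annotation, ACTA2, MYH11, NDE1, NRL, SOX10, TIMP3, COL10A1, OPN1SW, AANAT, PSMB9, KCNJ9 and GPRC5B, all named below, overlap another gene of the tables. Whether reads were counted by strand is not stated, so reads of such pairs cannot be told apart.

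Rod genes led the higher side. Of 14 tested rod genes (16 listed), 10 were higher in peripheral retina and 0 lower, with a median difference of 0.84. GRK1, a kinase that ends the light response of rods, was 86.31, 94.99 and 71.65 in peripheral and 37.95 and 31.53 in whole retina, 2.43-fold higher (difference 1.25 ± 0.17, SE; limma adjusted p = 0.000194). NRL, the transcription factor that sets rod fate, was 1242.8, 1578.2 and 1491.0 against 776.29 and 618.64, 2.06-fold higher (limma adjusted p = 0.0021). CNGA1, part of the cation channel that rods close in light, was 277.47, 306.15 and 250.3 against 129.53 and 171.47 (limma adjusted p = 0.00394). None of these overlapped between the groups.

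Other abundant rod genes did not pass the test. GNAT1, the rod transducin, was 3272.2, 3575.7 and 5059.8 against 2715.6 and 2095.7 (limma adjusted p = 0.07). SAG, the rod arrestin, was 3094.2, 3631.6 and 5012.8 against 2565.3 and 2487.9 (limma adjusted p = 0.0809). Both had higher values in every peripheral library, with a wide spread between the peripheral libraries. PDE6B, a subunit of the rod phosphodiesterase, averaged 361 ± 112 (SD, n = 3) against 181 ± 39.6 (SD, n = 2), with limma adjusted p = 0.0188, and lost its call without peripheral replicate 3 (limma adjusted p = 0.0553) or whole retina replicate 2 (limma adjusted p = 0.146). Without the latter the rod list kept 4 of its 10 calls.

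Genes that rods and cones share were higher too. Of 21 tested (26 listed), 15 were higher and 0 lower, with a median of 0.72, and 8 calls held whichever library was left out. TULP1, which carries proteins to the light-sensing outer segment, was 477.72, 478.74 and 531.01 against 186.46 and 216.92, 2.46-fold higher (limma adjusted p = 2.52e-05). CRX, a transcription factor of both photoreceptor types, was 258.79, 306.3 and 256.41 against 137.2 and 119.06 (limma adjusted p = 0.000529). GUCY2D, the guanylate cyclase that restores the dark state, was 48.99, 67.98 and 59.11 against 24.62 and 19.65, 2.65-fold higher (limma adjusted p = 0.00126). Every peripheral library exceeded both whole retina libraries for these 3 genes.

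Cone genes differed less clearly. Of 16 tested (17 listed), 2 were higher and 0 lower, with a median of 0.39, and quantile normalization called 10. Over all tested genes 9.83% were higher, and 26.3% after quantile normalization. KCNV2, a potassium channel subunit of photoreceptors, was 465.31, 493.11 and 487.12 against 311.01 and 298.48, 1.58-fold higher (limma adjusted p = 0.0114), but was not called without whole retina replicate 2 (limma adjusted p = 0.0642). The other, THRB, a thyroid hormone receptor of cones with a shared name start, lost its call without peripheral replicate 1 or whole retina replicate 1. OPN1SW, the blue cone pigment, was 68.04, 78.15 and 74.64 against 47.81 and 60.32 (limma adjusted p = 0.092). OPN1LW, a long-wavelength cone pigment with a near-identical copy, was 284.62, 225.3 and 237.59 against 309.01 and 337.8 (limma adjusted p = 0.0974), a direction that flipped under another scaling. In central retina, OPN1SW averaged 151, above peripheral retina (limma adjusted p = 0.00115).

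Ribbon synapse genes rose with the photoreceptor genes: 7 of 12 tested (16 listed) were higher and 0 lower, with a median of 0.59, and 5 calls held whichever library was left out. CABP4, a calcium sensor of the photoreceptor terminal, was 190.11, 203.84 and 202.17 against 87.47 and 66.69, 2.58-fold higher (limma adjusted p = 0.000101). CACNA1F, the calcium channel it regulates, was 90.67, 93.77 and 105.01 against 39.27 and 36.2, 2.56-fold higher (limma adjusted p = 0.000207). DLG4, a scaffold protein of synapses, was 136.7, 140.79 and 129.37 against 73.8 and 73.7 (limma adjusted p = 0.000338). Of 15 synaptic vesicle fusion genes, 7 were higher and 0 lower, among them the vesicle protein SV2B, 1.59-fold (limma adjusted p = 0.00406). Few of the 7 calls held whichever library was left out, with 5 higher without peripheral replicate 1. Of the 9 members whose name shares no start with another, 3 were higher.

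Interneuron genes followed the same direction. Of 12 tested bipolar genes (17 listed), 6 were higher and 0 lower, with a median of 0.51. CABP2, a calcium-binding protein of bipolar cells, was 69.03, 82.77 and 101.41 against 29.77 and 37.67, 2.5-fold higher (limma adjusted p = 0.000256). Of 14 tested amacrine genes, 6 were higher and 0 lower, with a median of 0.43. Not all 6 calls held whichever library was left out, and 4 were higher without peripheral replicate 2 or peripheral replicate 3. GAD2, which makes the inhibitory transmitter GABA, was 13.45, 16.42 and 19.13 against 7.88 and 7.67, 2.1-fold higher (limma adjusted p = 0.000865). SLC32A1, which loads GABA and glycine into vesicles, was 1.76-fold higher (limma adjusted p = 0.00127). Of 4 horizontal cell genes, TFAP2B and SEPT4 were called higher, and each lost its call in at least 3 of the 5 fits that left out a library, including that without whole retina replicate 2.

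Ganglion cell genes did not follow. Of 12 tested (16 listed), only ISL2, a transcription factor, was called: it was 3.91, 4.0 and 3.88 against 2.43 and 2.04 (limma adjusted p = 0.00616). The median was −0.12, and its sign flipped under quantile normalization (0.13) and median centring (0.06). NEFL, the light neurofilament of long axons, was 95.27, 48.92 and 66.72 against 118.39 and 80.18, with overlapping groups (limma adjusted p = 0.197). SNCG, a synuclein of ganglion cells, was 388.11, 214.18 and 414.92 against 376.19 and 256.09 (limma adjusted p = 0.905). Against central retina, 11 of the 12 were lower in peripheral retina, where 12.5% of all genes were; NEFL averaged 353 and SNCG 1731 in central retina. Against whole retina, by contrast, the share of the list that was called lay below the 34.2% of all genes.

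Glial genes were split. Of 15 tested Müller glia genes, 0 were higher and 2 lower, with a median of 0.06. The called members were VIM, an intermediate filament of many glial and connective tissue cells, at 464.18, 398.98 and 510.27 against 1121.5 and 1243.4, and CLU, a secreted chaperone, at 402.76, 354.82 and 386.38 against 962.49 and 845.19 (limma adjusted p = 0.00018 and 0.000152). Both have names that share a start with another entry. GLUL, the glutamine synthetase that marks Müller glia, was 768.82, 632.36 and 685.98 against 781.61 and 720.82 (limma adjusted p = 0.62), and its direction flipped under another scaling. Of 5 tested astrocyte genes, 4 were lower (2 without whole retina replicate 1), led by GJA1, a gap junction protein also made by other cells, at 9.5, 10.68 and 11.4 against 105.52 and 82.75 (limma adjusted p = 5.31e-07; shared name start). The others had low values: SLC14A1 was 0, 0.04 and 0.07 against 0.79 and 2.14. ALDH1L1 averaged 2.82 against 6.17, and AGT 1.45 against 3.075. After quantile normalization SLC14A1 and AGT were not called (limma adjusted p = 0.0658 and 0.234). AGT was not called after median centring either (limma adjusted p = 0.0821), nor without peripheral replicate 1 or peripheral replicate 2. GFAP, a defining astrocyte marker, was not analysed here.

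**Figure D3:**
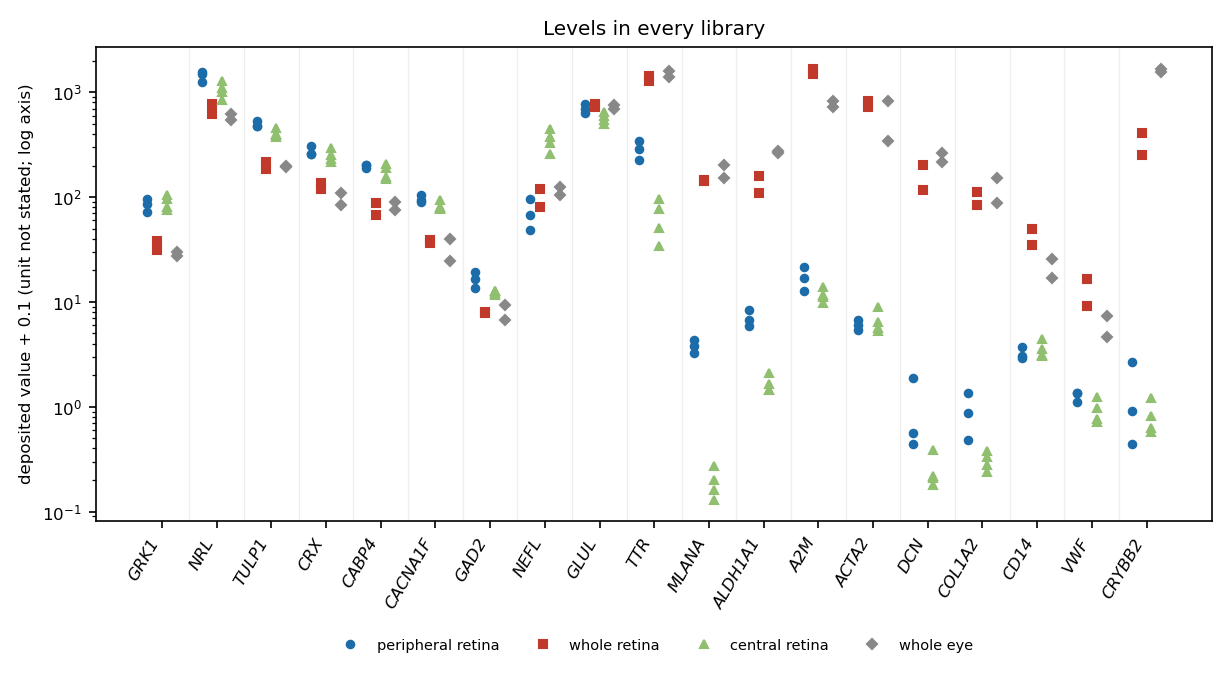
Deposited value plus 0.1 (unit not stated, log axis) of 19 genes, 1 point per library. From GRK1 to GAD2 the 3 peripheral libraries lie above the 2 whole retina libraries, and from TTR to CRYBB2 they lie below them, as with A2M at 12.74 to 21.53 against 1506.4 and 1653.9.

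Pigment epithelium genes were lower in peripheral retina. Of 11 tested (16 listed), 10 were lower and 0 higher, with a median of −1.25. TTR, a carrier of retinol and thyroid hormone, was 286.99, 227.45 and 345.2 against 1421.9 and 1289.1, 4.73-fold higher in whole retina (limma adjusted p = 0.000519). LRAT, which esterifies retinol for storage, was 9.25, 5.6 and 8.44 against 48.08 and 34.2, 5.3-fold higher in whole retina (limma adjusted p = 0.000258). Only ITGB8, an integrin, was not called. Central retina was lower still, with TTR averaging 64.3 and LRAT 2.82, and 9 of the 11 were higher in peripheral than in central retina (8.76% of all genes were).

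Genes of melanin synthesis fell further: 10 of 11 tested (14 listed) were lower, with a median of −2.06, and all 10 calls held whichever library was left out. MLANA, a melanosome protein, was 3.68, 4.19 and 3.17 against 142.32 and 145.18, 39.1-fold higher in whole retina (limma adjusted p = 7.55e-09). SLC45A2, a melanosome transporter, was 3.0, 2.74 and 2.86 against 19.34 and 19.19 (limma adjusted p = 7.78e-07). Pigment epithelium and choroidal melanocytes both make melanin, and the list cannot tell them apart. KIT, a receptor of melanocytes, was not called.

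The retinoid cycle runs between photoreceptors and pigment epithelium. Of its 14 tested genes (16 listed), 8 were lower and 0 higher, with a median of −1.23, and the 8 included RPE65, LRAT, TTR and DHRS3, a retinal reductase, which was 2.45-fold higher in whole retina (limma adjusted p = 0.000307). RLBP1, a retinal-binding protein of both pigment epithelium and Müller glia, was 459.4, 355.69 and 516.89 against 561.09 and 527.95 (limma adjusted p = 0.18), and its direction flipped under another scaling. Of 11 retinoic acid genes, 5 were lower and 1 higher, and the lower ones included CRABP2, a binding protein, and RARG, a receptor. The 3 tested enzymes that make retinoic acid fell: ALDH1A1 was 5.84, 6.55 and 8.36 against 109.53 and 159.2 (limma adjusted p = 8.91e-08), ALDH1A2 0.44, 0.55 and 0.09 against 14.11 and 12.98, and ALDH1A3 10.06, 11.33 and 14.73 against 76.95 and 62.03. CRABP1, a retinoic acid-binding protein, was the higher one at 232.91, 223.56 and 204.97 against 131.52 and 138.46 (limma adjusted p = 0.0163), and was not called without whole retina replicate 1 or replicate 2.

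**Figure D4:**
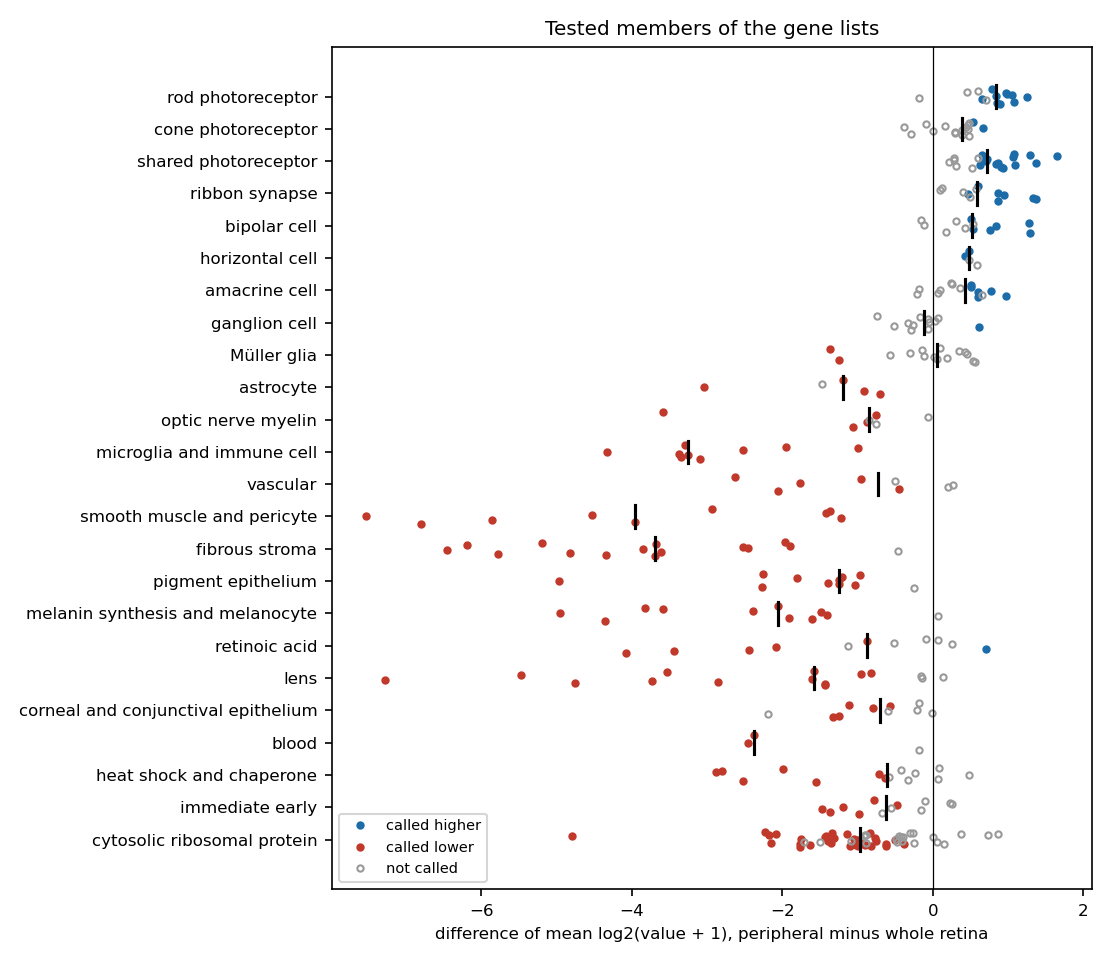
Difference of mean log2(value + 1), peripheral minus whole retina, for the tested members of 24 lists, with a vertical bar at each list's median. Rod, shared photoreceptor and synapse lists lie right of 0, with medians of 0.84, 0.72 and 0.59, and smooth muscle and fibrous stroma lists lie far left, at −3.96 and −3.70.

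Smooth muscle genes were lower in peripheral retina. All 9 tested members (12 listed) were called, with a median of −3.96 (−2.93 over the members with no shared name start), and all 9 calls held whichever library was left out. ACTA2, the smooth muscle actin, was 6.55, 5.88 and 5.3 against 723.11 and 819.6, 131-fold higher in whole retina (limma adjusted p = 7.85e-08). DES, the muscle intermediate filament, was 2.27, 2.12 and 0.99 against 179.14 and 139.18, 88.8-fold higher (limma adjusted p = 8.91e-08). MYH11, the smooth muscle myosin (shared name start), fell by 7.53 on the log2 scale. NDE1, a protein of the dividing cell's centrosome that overlaps MYH11, was 1.12, 1.1 and 1.13 against 116.41 and 156.96. The near-identical actins ACTA2, ACTG2 and ACTA1 may exchange reads.

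Stromal genes were similar: 14 of 15 tested (20 listed) were lower, with a median of −3.70 (−4.02 over the members with no shared name start), and all 14 calls held whichever library was left out. DCN, the matrix proteoglycan decorin, was 1.77, 0.46 and 0.34 against 116.48 and 200.97, 185-fold higher in whole retina (limma adjusted p = 9.62e-08). COL1A2, a chain of type I collagen, was 1.26, 0.78 and 0.38 against 111.25 and 83.87 (limma adjusted p = 6.84e-08). MGP, an inhibitor of calcification, was 12.54, 13.0 and 4.09 against 673.0 and 767.85, 72.9-fold higher (limma adjusted p = 7.27e-07). Among 22 collagens by name, 14 were lower and 0 higher. COL2A1, a collagen of the vitreous, was 10.15, 20.91 and 19.84 against 14.53 and 15.5 (limma adjusted p = 0.831), although it averaged 1.05 in central retina.

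Of 4 ciliary body and vitreous genes tested, 2 were lower, OPTC and COL5A2, and the latter lost its call in 4 of the 5 fits that left out a library. The vitreous proteoglycan OPTC spread widely between peripheral libraries, at 8.43, 71.95 and 36.27, against 500.91 and 545.94 in whole retina (limma adjusted p = 0.000295) and 0.15 on average in central retina. COL9A1, a further vitreous collagen, was 26.38, 26.98 and 19.17 against 43.48 and 50.25 and did not pass (limma adjusted p = 0.126). Both OPTC and COL9A1 are known from the ciliary epithelium at the retinal edge. The peripheral libraries stood between central and whole retina for both.

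Immune genes were lower in every peripheral library: all 9 tested (16 listed) were called, with a median of −3.25. CD14, a receptor of macrophages and microglia, was 2.83, 3.6 and 2.97 against 49.71 and 35, 13.5-fold higher in whole retina (limma adjusted p = 6.71e-07). CD74, which chaperones antigen-presenting molecules, was 25.67, 24.35 and 37.48 against 1149.5 and 307.69 (limma adjusted p = 1.73e-05). The 2 whole retina libraries differed from each other here, with summed immune genes at 516.04 and 1673.0. C3, the central complement protein, was 4.57, 2.84 and 3.42 against 86.05 and 5.19 (limma adjusted p = 0.0348, shared name start) and was not called without whole retina replicate 1 (limma adjusted p = 0.196), nor without any single peripheral library. PSMB9, a subunit of the immunoproteasome, was 1.77, 2.44 and 1.82 against 61.67 and 10.74 (limma adjusted p = 0.000885).

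Vessel genes fell less. Of 8 tested (13 listed), 5 were lower and 0 higher, with a median of −0.73. CDH5, the cadherin of endothelial junctions, was 1.33, 0.8 and 0.92 against 8.07 and 6.72, 7.27-fold higher in whole retina (limma adjusted p = 4.5e-06). VWF, a clotting protein made by endothelium, was 1.24, 1.24 and 1.01 against 16.63 and 9.07 (limma adjusted p = 1.16e-05). The other 3 called were PECAM1, TEK and ESAM, and ESAM lost its call in 4 of the 5 fits that left out a library, after quantile normalization (limma adjusted p = 0.0929) and after median centring (limma adjusted p = 0.156). KDR and FLT1, the growth factor receptors of endothelium, were not called. Retinal and choroidal vessels both carry these genes.

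Lens genes were present in whole retina and low in peripheral retina, where 12 of 15 tested (18 listed) were lower, with a median of −1.58. CRYBB2, a lens crystallin, was 0.82, 0.34 and 2.58 against 405.65 and 251.89, the largest fall among genes with no shared name start that the naming rule admitted (difference −7.28 ± 0.35, SE; limma adjusted p = 1.1e-07). CRYGS, another crystallin, was 0.95, 1.51 and 1.45 against 100.22 and 100.6 (limma adjusted p = 2.64e-07). Both were higher in whole eye than in whole retina (limma adjusted p = 0.0052 and 0.00031). Of 10 corneal and conjunctival genes, 5 were lower (CLU, S100A8, S100A9, ALDH3A1 and PERP), with a median of −0.70, and 3 without peripheral replicate 2. S100A8 was 0, 0 and 0 against 0.73 and 0.28, and was tested only because of its level in whole eye. S100A9 and PERP were also low, averaging 1.92 and 3.17 in whole retina. The corneal keratin KRT12 was 0.07, 0.2 and 2.48 against 0.93 and 28.21 (limma adjusted p = 0.0708).

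Blood and myelin genes gave smaller or less stable differences. HBB, the beta globin, was 23.13, 41.58 and 59.65 against 109.71 and 383.01 (limma adjusted p = 0.0132) and was not called without whole retina replicate 2 (limma adjusted p = 0.15). HBA2, an alpha globin with a near-identical copy, behaved alike, with limma adjusted p = 0.011, and 0.127 without that library. Of 7 myelin genes, 4 were lower, and 2 without peripheral replicate 2 or 3. SOX10, a transcription factor of myelinating cells and melanocytes, was 1.89, 1.13 and 1.21 against 37.32 and 20.57 (limma adjusted p = 5.18e-06). CLDN11 was among the others, and so was MAG, which lost its call in all 5 fits that left out a library.

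Stress genes were called lower in part. Of 14 heat shock and chaperone genes, 7 were lower and 0 higher, with a median of −0.61, and 6 calls held whichever library was left out. CRYAB, a small heat shock protein also abundant in lens, was 82.5, 98.52 and 104.85 against 530.0 and 570.45, 5.77-fold higher in whole retina (limma adjusted p = 4.83e-06). HSPB8, another small heat shock protein, was 7.19-fold higher (limma adjusted p = 4.26e-05). Of 12 immediate early genes, 6 were lower and 0 higher, with 3 lower without peripheral replicate 2 or whole retina replicate 1. Quantile normalization also called 3 lower, where 16.9% of all genes were. EGR1, a transcription factor induced within minutes of a stimulus, was 5.59, 5.92 and 9.02 against 19.9 and 20.74 (limma adjusted p = 0.000298), and whole eye was lower than whole retina at 5.54 and 8.39 (limma adjusted p = 0.00492).

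Of 57 tested ribosomal protein genes, 35 were lower, 0 higher and 22 not called. Their median difference was −0.96, with a range from −4.79 (RPS2) to 0.86 (RPS29), and 26 calls held whichever library was left out. RPL9, a protein of the large subunit, was 99.59, 85.4 and 93.79 against 293.72 and 339.37, 3.41-fold higher in whole retina (limma adjusted p = 6.64e-06). Processed copies of ribosomal genes can take or give reads. Of the 57 names, 28 share a start, among them RPS2 and RPS29, the ends of that range. Over the members with no shared name start the median was −0.92. Of 60 mitochondrial ribosomal proteins, 13 were lower and 1 higher (MRPS23), a share below that of all genes, and 7 were lower without whole retina replicate 2. Of 32 proteasome subunits, 12 were lower and 0 higher, with 6 lower without peripheral replicate 1 or peripheral replicate 2. Fewer were also called without either whole retina replicate. Quantile normalization called 4 of the 32 lower and median centring 5, where 16.9% and 18.8% of all genes were lower. Of 22 respiratory chain genes, 6 were lower and 0 higher, but 1 was lower without whole retina replicate 2, 3 without peripheral replicate 1 or 2, and 10 without whole retina replicate 1. Over all tested genes 24.3% were lower, which is near the share of these 22. SDHC, a subunit of succinate dehydrogenase, was the clearest of them at 2.38, 3.45 and 2.16 against 21.01 and 21.52 (limma adjusted p = 4.5e-06).

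Glycolysis, splicing, clock and cilium genes gave few calls. Of 17 glycolysis entries, 2 were higher (TPI1 and PFKFB2) and 1 lower (SLC2A1, the main glucose transporter, shared name start), with a median of −0.29 that flipped to 0.01 under quantile normalization. PFKFB2 lost its call in 4 of the 5 fits that left out a library, and SLC2A1 without whole retina replicate 1. Of 21 splicing genes, 3 were higher (SNRNP70, DDX17 and RBM25) and 1 lower (HNRNPA1). RBM25 lost its call in each of the 5 fits that left out a library, and HNRNPA1 in that without whole retina replicate 2. Of 16 clock genes, 3 were higher (ARNTL, RORA and RORB), 0 of them without whole retina replicate 1, and 1 was lower. BHLHE40, a clock repressor, was the lower one at 18.55, 16.08 and 18.79 against 51.68 and 41.84 (limma adjusted p = 1.35e-05). AANAT, an enzyme of melatonin synthesis, was 501.78, 447.17 and 675.6 against 417.86 and 343.17 (limma adjusted p = 0.0767). Of 22 cilium genes, 6 were higher and 0 lower, with 0 calls that held whichever library was left out.

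Eye patterning genes went both ways: of 16 tested (26 listed), 4 were higher, among them RAX, VAX2 and MEIS1, and 3 lower (NR2F1, NR2F2 and BMP4). RAX and MEIS1 lost their calls in at least 3 of the 5 fits that left out a library. VAX2, a transcription factor of the ventral retina, was 76.96, 95.76 and 124.96 against 43.77 and 58.59, 1.94-fold higher (limma adjusted p = 0.00394). Where along the retina the peripheral pieces were taken is not given. NR2F2, a nuclear receptor of veins and stroma among other cells, was 6.1, 4.31 and 4.87 against 26.82 and 33.55 (limma adjusted p = 3e-06). BMP4, a growth factor of the dorsal eye and of other tissues, was 8.09, 6.4 and 7.41 against 56.05 and 50.09 (limma adjusted p = 5.7e-06). Among 9 complement and macular degeneration genes, 4 were lower (CFB, C3, TIMP3 and COL10A1), and 2 in the fits without peripheral replicate 1, peripheral replicate 2 or whole retina replicate 1. COL10A1 kept its call in 1 of the 5 fits that left out a library, and its direction turned under quantile normalization (difference 0.12, limma adjusted p = 0.547). TIMP3 is a matrix protease inhibitor of the membrane under the pigment epithelium, and was 4.16-fold higher in whole retina (limma adjusted p = 3.23e-06). The median of that list, −0.30, flipped to 0.12 under quantile normalization.

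Families grouped by name were mixed. Their counts stand beside 9.83% of all tested genes called higher and 24.3% called lower. After quantile normalization these shares were 26.3% and 16.9%. Of 251 zinc finger genes, 35 were higher and 8 lower, but 7 of each direction held whichever library was left out. The higher count was 15 without peripheral replicate 2, 17 without whole retina replicate 2 and 21 without peripheral replicate 1, and quantile normalization called 131 higher. Of 182 solute carriers, 21 were higher and 57 lower, with a median of −0.20 that flipped to 0.04 under quantile normalization, which called 39 higher and 43 lower. On the deposited values 10 were higher without whole retina replicate 2 and 13 without peripheral replicate 2. Of 48 potassium channel genes, 18 were higher and 8 lower, with a median of 0.38, and 8 were higher without whole retina replicate 2. KCNJ9, a channel of neurons, was 15.97, 14.76 and 15.32 against 8.77 and 8.32 (limma adjusted p = 0.000227). KCNJ8, the channel of pericytes and smooth muscle, ran the other way at 1.34, 0.72 and 0.84 against 46.36 and 66.49 (limma adjusted p = 2.64e-07). Of 9 keratins, 2 were lower, KRT18 and KRT8, and 4 without whole retina replicate 1, with a median of −0.21 that flipped to 0.10 under quantile normalization. Of 9 tubulins, all with a shared name start, 1 was higher, TUBB2B, with a median of −0.13 that flipped to 0.20 under quantile normalization and 0.06 under median centring. Of 8 skeletal muscle genes, 1 was lower, MB, which was listed at 0, 0 and 0.02 against 1.31 and 1.45. Their median, −0.01, became 0.15 under quantile normalization, 0.17 under median centring and 0.07 under a trimmed mean of log ratios.

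The 12 largest rises among genes with no shared name start that the naming rule admitted were small beside the falls. CAMK2N2, an inhibitor of a calcium-dependent kinase, was 25.9, 20.34 and 19.86 against 4.07 and 1.34, 8.15-fold higher (difference 2.73 ± 0.26, SE; limma adjusted p = 1.35e-05). In central retina it averaged 63.5. SCRT2, a neural transcription factor, was 13.33, 10.76 and 9.29 against 2.14 and 2.0, 5.38-fold higher (limma adjusted p = 3.84e-05). DOC2B, a calcium sensor for vesicle release, was 85.45, 92.0 and 81.02 against 26.29 and 23.33 (limma adjusted p = 4.05e-06). NTNG2, a netrin-like membrane protein, was 155.08, 155.93 and 147.26 against 53.93 and 46.0 (limma adjusted p = 8.84e-06). The others were CROCC, which has near-identical copies, GDPD3, FAM19A3, PLCH2, CABP4, GUCY2D, CACNA1F and ZMYND19, and the last lost its call in 4 of the 5 leave-one-out fits.

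The 12 largest falls, by log2(value + 1) difference, are also among genes with no shared name start that the naming rule admitted. They were CRYBB2, ACTA2, A2M, DCN, MRVI1, MYOC, MGP, NDE1, DES, COL1A2, CRYGS and S100A4. A2M, a broad protease inhibitor, was 21.53, 12.74 and 16.68 against 1506.4 and 1653.9, 93.0-fold higher in whole retina (limma adjusted p = 7.55e-09). MYOC, a protein of the aqueous outflow tissue at the front of the eye, was 1.39, 1.77 and 1.62 against 215.3 and 168.15 (limma adjusted p = 7.47e-09). S100A4, a calcium-binding protein of stromal and immune cells, was 1.51, 2.64 and 2.31 against 128.73 and 140.38 (limma adjusted p = 1.05e-08). The naming rule required groups that did not overlap, so the distance of the whole retina libraries from the peripheral range follows from the choice. All 12 calls held whichever peripheral library was left out.

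A whole retina holds its own periphery and centre, so its level might be looked for between both. Both whole retina libraries lay above all 7 regional libraries for 3324 genes (27.9% of those tested) and below all of them for 1661 (13.9%), and between or overlapping for 6948 (58.2%). These counts move with scaling, to 2193 above and 3494 below after quantile normalization, and to 2419 and 2942 after median centring. Among the 2904 genes lower in peripheral retina, 2592 (89.3%) had both whole retina libraries above every regional library, and among the 1173 higher genes, 959 (81.8%) had both below. The lower calls include 9 of 9 smooth muscle, 9 of 9 immune and 14 of 15 stromal genes in that position. These positions share the whole retina and peripheral libraries with the calls, so they are a description.

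Central retina, which shares the whole retina libraries as reference, had 2257 genes higher (18.9%) and 3549 lower (29.7%) than in whole retina, together 48.7%. Whole retina against whole eye gave 20 higher and 251 lower genes (2.27%). The peripheral with central comparison tests the difference between both regional comparisons, and called 21.3% of genes. Of the 2904 genes lower in peripheral than in whole retina, 371 were higher in peripheral than in central retina and 270 lower. The stromal gene DCN averaged 0.15 in central and 0.857 in peripheral retina, a difference that did not pass the test (limma adjusted p = 0.106) although every peripheral value lay above every central one. Peripheral MLANA had a mean of 3.68, against a central mean of 0.09 (limma adjusted p = 8.06e-06).

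Only 17 genes were called against whole retina in opposite directions by the regions: 15 were lower in peripheral and higher in central retina, and 2 the reverse. GPRC5B, an orphan receptor, was 35.17, 30.1 and 30.03 in peripheral retina, 56.29 and 41.21 in whole retina and 71 on average in central retina. PPP1R3C, a regulator of glycogen synthesis, ran the other way, at 36.06, 32.67 and 41.18 in peripheral, 24.3 and 28.02 in whole and 15.4 on average in central retina. For these genes whole retina lay between its regions. GPRC5B lost its call against whole retina without whole retina replicate 1 (limma adjusted p = 0.1), and PPP1R3C lost it without that library, peripheral replicate 1 or peripheral replicate 3. They were chosen after their values were seen, and 6 of the 17 have names with a shared start.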

How the data were processed

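RNA sequencing tables of 11 samples were used, 5 of them in the main comparison. Each deposited table holds 1 normalized signal value per gene, per the file headers; how the authors normalized it is not stated. GSNAP (alignment) and HTSeq (counting) are named without version, per the submitters' processing notes. The genome build and annotation were not given in the sources used here. No coordinates are printed.

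Of 13083 entries per table, 27 had no value and 61 exact duplicates were dropped, which left 12995, of which 9490 of 12976 unique names match RefSeq symbols (RefSeq assembly T2T-MFA8v1.1, used for names and overlapping genes only). The 11933 entries whose mean reached 1 in some group were tested. limma 3.58.1 in R 4.3.3 was fitted to log2(value + 1) over all 4 groups, which share 1 variance per gene with a trend on level. Tests were two-sided with Benjamini-Hochberg adjustment, threshold 0.05. A fold change is the ratio of group means of deposited values, and a difference is on the log2(value + 1) scale, which understates changes of low genes. Numpy 2.4.6, pandas 2.3.3 and matplotlib 3.10.9 made tables and plots.

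The comparison and the 43 gene lists were chosen with earlier results of these data known. Genes were named by rule: the 12 largest differences per direction (called, groups not overlapping, the higher group's mean at 10 or above, no shared name start), per list up to 4 members by smallest p and all called members of a direction with 5 or fewer, and fixed markers. RPE, GPRC5B, RBFOX2, PPP1R3C, FAIM and FAIM3 were added after their values were seen, as were list members named only as not called. On simulated tables of 11464 genes for this comparison, the fit recovered 20% of 1.5-fold, 62% of 2-fold and 98% of 4-fold changes (50 genes each). Of its calls, 3.5% were false. The simulation drew independent noise around 1 mean per gene, with few genes changed and no shift in scaling. That false share does not carry over to these data, where 34.2% of genes were called. Alternatives covered scaling, pseudocount, filter, variance model, the replicate block, shared names and each library left out. Some genes that met the naming rule are not reported here.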

Additional observations from a re-analysis of the deposited data

Results flagged for a closer look

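GPRC5B, RBFOX2, PPP1R3C, FAIM and FAIM3 stood out because the peripheral and the central retina each differed from whole retina, in opposite directions. They were chosen for opposite calls against the same whole retina libraries, so a large difference between peripheral and central retina follows from the choice. The p-values of that comparison, from limma on the 11 libraries, are given as a description.

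GPRC5B (limma adjusted p = 0.000156) and RBFOX2, a splicing regulator (limma adjusted p = 0.000202), were lower in peripheral than in central retina. RBFOX2 was 16.65, 13.42 and 14.5 in peripheral, 22.03 and 21.41 in whole and 28.9 on average in central retina. PPP1R3C was higher in peripheral than in central retina (limma adjusted p = 0.000145).

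FAIM and FAIM3 have names with a shared start. FAIM was 0.06, 0.03 and 0.1 in peripheral, 28.17 and 1.32 in whole and 55.8 on average in central retina (limma adjusted p = 0.000147 for peripheral against central). FAIM3 was 27.45, 33.18 and 26.44 in peripheral, 6.74 and 23.72 in whole and 0.05 on average in central retina (limma adjusted p = 1.46e-05). In each library, one of the pair was high where the other was low, except in whole retina replicate 1. The FAIM3 call against whole retina was lost when any single peripheral library, or whole retina replicate 1, was left out (limma adjusted p up to 0.438).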

How the results depend on the processing

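The number of genes higher in peripheral retina was 1173, and it rose to 3143 after quantile normalization and 2424 after median centring, fell to 152 with a minimum 2-fold difference, and ranged from 697 to 974 with 1 library left out. The number lower was 2904, fell to 1558 with that minimum, and ranged from 2295 to 2710 with 1 library left out. Whole retina lay above all regional libraries for 3324 genes, and for 2193 after quantile normalization; it lay below for 1661, and for 3494 after quantile normalization and 2942 after median centring. The causes were not tested. COL10A1 reversed to 0.12 under quantile normalization (limma adjusted p = 0.547).

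The labels do not say that a replicate number pairs samples across the groups. Deviations of same-numbered samples correlated at −0.088 and 0.11; with 2 whole retina libraries, whose deviations mirror each other, these values cannot settle it. A fit with the replicate block called 1327 higher and 2897 lower. With the 5 libraries of both groups only, 913 were higher and 2498 lower. Leaving out a whole retina library leaves 1, which is then assumed to vary like the other groups. Of 210 named genes, 30 lost their call without whole retina replicate 1 and 28 without replicate 2. Absolute depth is unknown, so no counting error can be given for low values.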
